A study of Mus musculus with 16 samples.

Results

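The genes described here code for 10 acute phase proteins of mouse liver: the serum amyloid A genes Saa1, Saa2 and Saa3, the orosomucoid genes Orm1, Orm2 and Orm3, and Fgl1, Hp, Lcn2 and Apcs. They were chosen by name, with no measured value in the rule, from a fixed list written with earlier results of these data known. They are the members of that list that have a probe on the array. They lie on chromosomes 7 (the Saa genes), 4 (the Orm genes), 8 (Fgl1 and Hp), 2 (Lcn2) and 1 (Apcs). All 10 had a probe, of 19057 genes with a probe, and all 10 were among the 9906 genes tested. RNA was measured in livers whose hepatocytes carry a deletion in Rxra, genotype hs-RXRa-Dex4-/- in the labels (hs-RXRα KO), in 3 male and 5 female mice, and in livers of wild-type (WT) mice, again 3 males and 5 females. All mice were 2 months old and no treatment is given for any group. Each sample was hybridized to 1 Illumina mouse bead array as biotin-labelled cRNA. The labels limit the deletion to hepatocytes, so the other cells of a KO liver still carry Rxra, and the driver of the deletion is not given in the sources used here. The labels do not say how the samples of a group are related, so the p-values measure only the spread between these samples.

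Acute phase proteins are plasma proteins whose synthesis in hepatocytes changes within hours of infection, injury or tissue damage. Interleukin 6 acts through STAT3, and interleukin 1 and tumour necrosis factor act through NF-κB and C/EBP factors, on the promoters of these genes. RXRα, the partner of many nuclear receptors, is not among the classical activators of the response, but several of its partner receptors are known to restrain inflammatory transcription in liver. Serum amyloid A is carried on high density lipoprotein, orosomucoids bind drugs and lipids in plasma, haptoglobin (Hp) captures free haemoglobin, and lipocalin 2 (Lcn2) withholds iron from bacteria by binding their siderophores. Serum amyloid P component (Apcs) is a pentraxin and the main acute phase pentraxin of the mouse, and Fgl1 is a fibrinogen-related protein secreted by hepatocytes.

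The values are intensities from which the background had been subtracted, so that a probe can fall below 0, and the arrays share nearly the same distribution, with medians of 5.55 to 5.63. A probe counted as detected above 3 times the background of its array, which was an intensity of 20.9 to 21.0. Differences are given on a log2 scale after values below 0 were set to 0 and 16 was added, which understates the changes of dim genes. Groups were compared by limma over all 16 arrays, and a gene was called at an adjusted p (Benjamini-Hochberg, over the 9906 genes) under 0.05. All 8 measured hepatocyte markers were detected, with a summed intensity of 147990 to 166840 in KO livers and 134120 to 155720 in WT livers. By the labels' sex, Xist was detected on 10 of 10 female and 0 of 6 male arrays. The level of the 1 Rxra probe did not pass the test in either sex (log2 difference KO minus WT 0.33 in males, adjusted p = 0.547, and 0.17 in females, adjusted p = 0.817). Where that probe lies relative to the deleted part is not given in the sources used here, so it checks nothing about the deletion. The array female WT 4 had the lowest mean correlation with the others of its group (0.952), followed by female WT 2 (0.961).

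Most of these genes were among the brightest of the liver. By mean intensity over the 16 arrays, Hp ranked 50, Fgl1 51, Orm1 58, Apcs 107, Saa1 160 and Orm2 271 of the 9906 genes. Lcn2 ranked 907, Saa3 1076 and Saa2 3605, and Orm3 was the dimmest at 7668. Probes differ in their response, so these ranks order probes and only roughly order transcripts. Of the 15 probes of the 10 genes 14 were detected on at least 3 arrays, and the exception was another probe of Fgl1, which stayed below an intensity of 16 on every array.

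**Figure D1:**
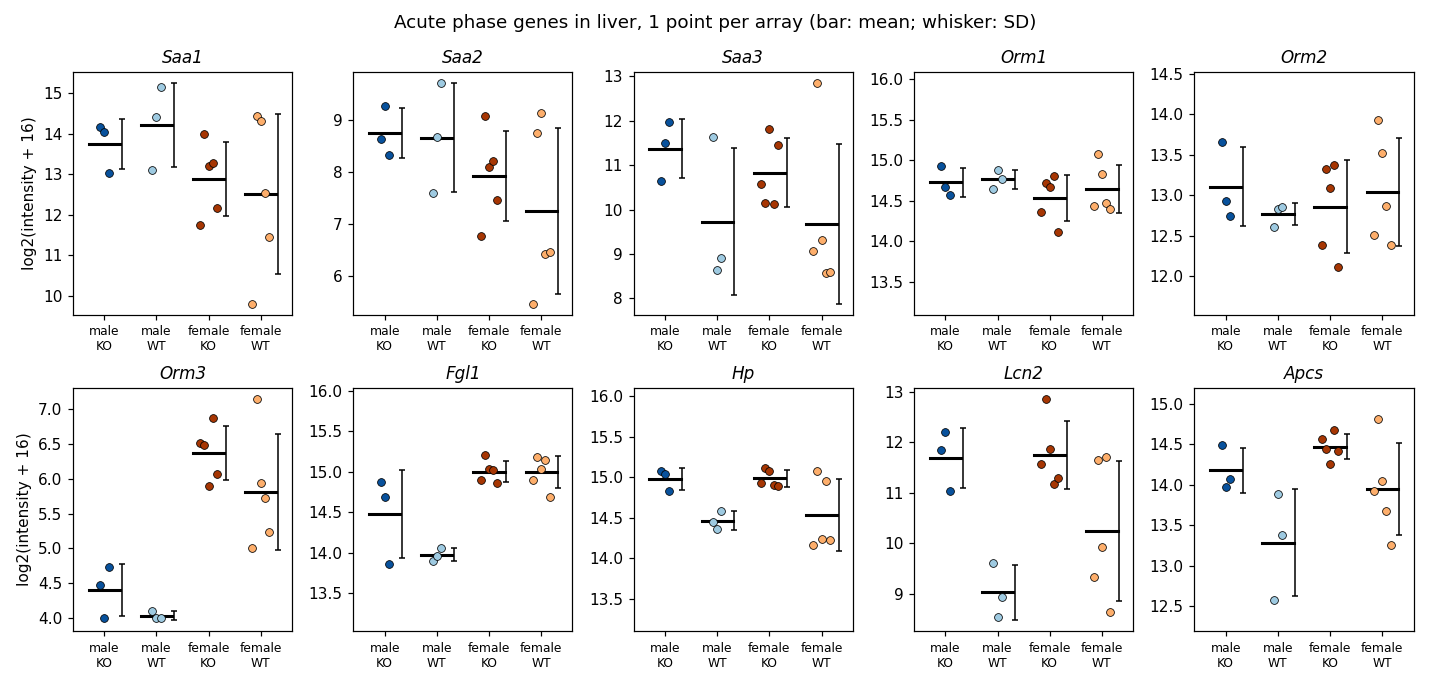
Level of each of the 10 genes on every array, as log2 of the intensity plus 16, with 1 point per array and groups along the horizontal axis (male KO n = 3, male WT n = 3, female KO n = 5, female WT n = 5). The horizontal bar is the group mean and the whisker the SD; Lcn2 has its lowest mean in male WT livers, Orm3 is near the bottom of the scale in all male livers, and the Saa genes spread widely within groups.

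Lcn2 had the largest difference between KO and WT livers among the 10 genes. Its intensities were 3662, 4684 and 2080 in male KO livers, against 767, 353 and 471 in male WT livers. In females they were 3031, 7396, 3694, 2292 and 2508 in KO livers and 622, 3194, 955, 3328 and 380 in WT livers. Every male KO liver lay above every male WT liver, whereas in females the WT livers 2 and 4 reached the range of the KO livers and the other 3 did not. The log2 difference, KO minus WT, was 2.67 in males (SE 0.680, 95% interval 1.23 to 4.11), 6.36-fold, and 1.51 in females (SE 0.527, 0.39 to 2.62), 2.84-fold. Neither passed the adjustment over all genes (limma, adjusted p = 0.0658 in males and 0.199 in females). Leaving out female WT 2, 4 or 5, which changes only the estimate of the spread, brought the male difference to an adjusted p of 0.0396, 0.0354 and 0.0335. Over all 23 alternatives run for the male difference, its adjusted p ran from 0.0019 to 0.238, and 6 of them called it.

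Averaged over the sexes, Lcn2 was the only one of the 10 genes that was called between the genotypes. The mean of the male and female differences was 2.09 (SE 0.430, 95% interval 1.18 to 3.00), 4.25-fold, with an adjusted p of 0.00849 by limma, and 4.59% of all genes were called in this comparison. This average was formed after the values of each sex had been seen. The difference between the sexes in the response of Lcn2 was 1.16 (SE 0.861, 95% interval −0.66 to 2.99, adjusted p = 0.681), which leaves a wide range of values. The call of Lcn2 was kept under every alternative run for the average, with adjusted p between 0.0002 and 0.0307.

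Lcn2 is made by hepatocytes in the acute phase and is also a granule protein of neutrophils, so the neutrophil markers were set beside it. Of 13 neutrophil markers 12 had a probe and 7 were detected on any array. The granule genes Ngp, Ltf, Elane and Mmp8 and the receptor gene Cxcr2 were detected on none. Among the detected markers, S100a8 and S100a9 were above background on all 16 arrays, the granule gene Camp on 5 and the receptor gene Csf3r on 3. The summed intensity of the neutrophil list was 415 to 812 in male KO livers and 388 to 764 in male WT livers, and 238 to 471 in female KO livers and 158 to 1571 in female WT livers. Of the WT livers with a high Lcn2, female WT 2 had the highest neutrophil sum of all arrays (1571) and female WT 4 the lowest (158). S100a8, the neutrophil calgranulin, had an intensity of 1064 in female WT 2 and 66.7 in female WT 4. Fewer cells of a type and less RNA per cell cannot be told apart in whole liver.

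The promoter of Lcn2 is printed because Lcn2 carries the difference between the genotypes. The window is the 250 bases before the annotated start (RefSeq, GRCm38.p6, chr2:32387740-32387989, minus strand, read 5′ to 3′ along the gene), with capitals for matches to the motifs searched. These were a C/EBP motif (TTNNGNAA), a STAT motif (TTCNNNGAA), the type II interleukin 6 element (CTGGGAA) and the NF-κB consensus, on both strands.
Lcn2: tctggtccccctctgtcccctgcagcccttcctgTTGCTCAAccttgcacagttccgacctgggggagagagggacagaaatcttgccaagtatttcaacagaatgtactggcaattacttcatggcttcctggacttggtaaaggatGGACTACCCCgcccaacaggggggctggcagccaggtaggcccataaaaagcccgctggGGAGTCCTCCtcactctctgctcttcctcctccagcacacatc
The window held 1 C/EBP match, which began 216 bases before the start, and 2 NF-κB matches, the nearer of which ended 34 bases before it. It held no match to the STAT motif, to the type II element or to the RXR half-site AGGTCA. Over all 32851 promoter windows of that table, 36.8% had a C/EBP match, 23.2% an NF-κB match, 7.02% a STAT match, 9.1% a type II match and 14.0% an RXR half-site. A match is a description of the letters, and binding was not measured on these arrays. The motifs were chosen after the promoters had been read, and a window was matched for 7 of the 10 genes. That of Apcs held 1 STAT match and 2 matches to the type II element and no C/EBP match.

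Haptoglobin and Apcs lay above WT in the KO livers of both sexes by smaller amounts. Hp, by its brightest probe, had intensities of 34669, 33547 and 29015 in male KO livers, against 22366, 21018 and 24559 in male WT livers. In females it had 31217, 35482, 34669, 30683 and 30465 in KO livers and 18254, 34505, 19341, 31851 and 19109 in WT livers. The male groups did not overlap, and in females WT 2 and 4, the livers with a high Lcn2, were again the only ones within the KO range. The log2 difference of Hp was 0.52 in males (SE 0.227, adjusted p = 0.312) and 0.45 in females (SE 0.176, adjusted p = 0.263), and averaged over the sexes 0.49 (SE 0.143, adjusted p = 0.0704, limma). The other 2 probes of Hp, which were dimmer, gave averages of 0.81 and 0.77. Their adjusted p over all probes was 0.0313 and 0.0283, so the probes of Hp differ in the call. These 2 probes gave differences of 0.90 and 0.97 in males and 0.71 and 0.57 in females. The brightest probe thus gave the smallest difference of Hp in each sex. Whether the top of the intensity scale compresses the differences and spreads of the brightest probes, such as those of Hp, Fgl1 and Orm1, was not tested.

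Apcs had intensities of 22963, 16023 and 17241 in male KO livers, against 6106, 15160 and 10606 in male WT livers. In females they were 24132, 22234, 19575, 26102 and 21815 in KO livers and 15558, 28623, 16901, 13095 and 9803 in WT livers. The male groups did not overlap, and among the female WT livers WT 2 was above all KO livers while the other 4 were below all of them. The log2 difference of Apcs was 0.90 in males (SE 0.338, adjusted p = 0.222) and 0.53 in females (SE 0.261, adjusted p = 0.449), with an average of 0.71 (SE 0.213, adjusted p = 0.0755, limma). Without female WT 2 the averages of Apcs (0.82, adjusted p = 0.0157), Hp (0.55, adjusted p = 0.0181) and Saa3 (1.79, adjusted p = 0.0198) all passed beside that of Lcn2. Leaving out this 1 array thus changed 3 calls. Without female WT 4 the average of Hp passed, and without male WT 2 that of Apcs. Over all 22 alternatives the average of Hp passed in 6, that of Apcs in 3 and that of Saa3 in 2. The highest adjusted p among them was 0.165 for Hp, 0.191 for Apcs and 0.504 for Saa3.

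**Figure D2:**
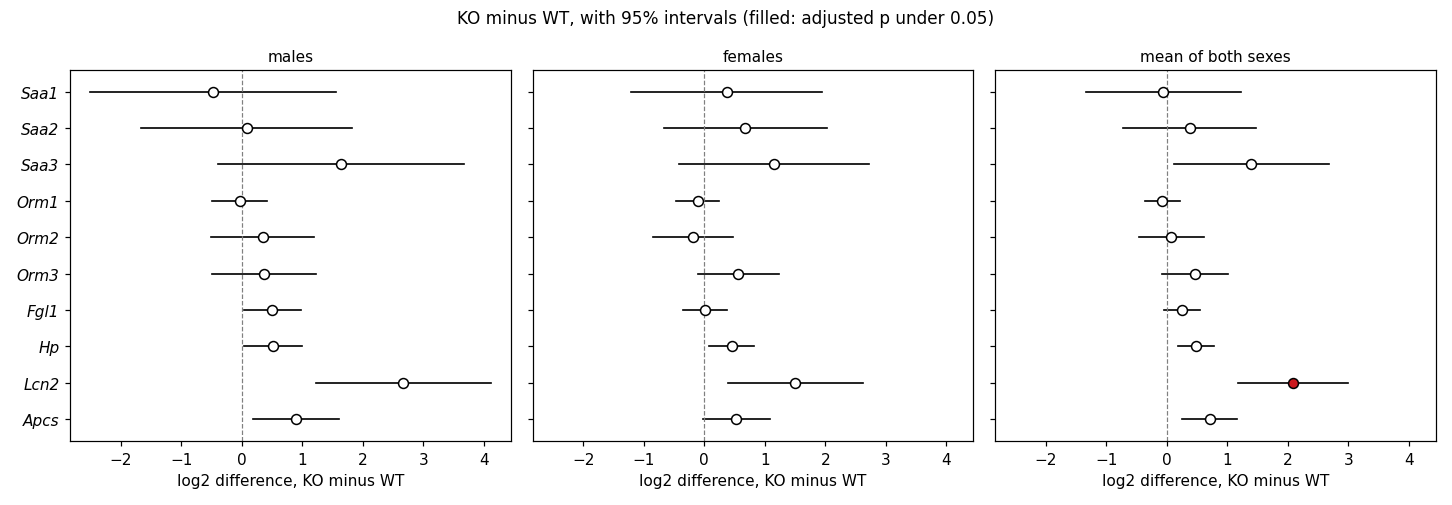
Log2 difference, KO minus WT, of the 10 genes in males, in females and as the mean of both sexes (horizontal axis, log2 of intensity plus 16), with 95% intervals from limma as lines. A filled point has an adjusted p under 0.05; only Lcn2 in the mean of both sexes (2.09) is filled, and Orm3 was above background in neither group of males.

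Counted over the 10 genes, none was called between KO and WT in males or in females. Over all genes 1.5% were called in males and 2.37% in females. At an unadjusted p under 0.05, Fgl1, Hp, Lcn2 and Apcs were higher in male KO livers and Hp and Lcn2 in female KO livers, against 14.3% and 12.3% of all genes in either direction. The groups did not overlap for 3 of the 10 genes in males (Hp, Lcn2 and Apcs) and for none in females, while 23.1% of all genes did not overlap in males and 3.89% in females. For the 10 genes the median log2 difference was 0.44 in males, beside 0.02 for all genes tested, and 0.49 in females, beside 0.0041. The male median rests in part on Orm3, which was above background in neither group of males. The share of the 10 genes that did not overlap in males is thus near that of all genes. None of the 10 genes passed the test of a different response in males and females, for which 0.0606% of all genes were called, and none had an unadjusted p under 0.05 in it.

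The serum amyloid A genes Saa1 and Saa2 varied widely between livers of 1 group and did not separate the genotypes. Saa1 had intensities of 18254, 16842 and 8361 in male KO livers, against 8758, 21815 and 36227 in male WT livers. In females it had 3432, 16306, 9440, 9912 and 4547 in KO livers and 876, 22366, 20439, 5918 and 2765 in WT livers. The highest female WT liver was thus 25.5 times the lowest, and the KO groups lay inside the range of their WT groups in females and overlapped it in males. The residual SD of Saa1 within groups was 1.35 on the log2 scale, larger than that of 99.9% of the genes tested, for which the median was 0.321. Its log2 difference, KO minus WT, was −0.48 in males (95% interval −2.51 to 1.56, adjusted p = 0.855) and 0.37 in females (−1.21 to 1.94, adjusted p = 0.909), so changes of several fold in either direction lie within the intervals.

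Saa2 followed Saa1 at a lower intensity. It had 381, 600 and 303 in male KO livers, against 178, 393 and 816 in male WT livers, and in females 93.6, 523, 257, 280 and 161 in KO livers and 28.3, 411, 546, 69.9 and 72.5 in WT livers. The order of the female KO livers was the same for both genes, and female WT 1 was the lowest WT liver for both. Over the 16 arrays the deviations of Saa1 and Saa2 from their group means correlated with r = 0.947 (Spearman's rho 0.941). Permuting the arrays within groups 100000 times gave p = 2e-05 for r and 6e-05 for rho, and adjusted over 45 pairs of the 10 genes these were 0.00045 and 0.0013. Without the 2 arrays farthest from the median of Saa1, female WT 1 and 2, r was 0.936. It was 0.953 over the 10 female arrays and 0.920 over the 6 male arrays. A second probe of Saa1, at an intensity of 17.6 to 979, followed the first with r = 0.953.

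Saa1 and Saa2 are near copies and lie head to head on chromosome 7, and their promoters are shown with that of Saa3 because the first 2 genes moved together and Saa3 did not move with them. The windows are the 250 bases before each start in GRCm38.p6 (chr7:46742981-46743230, minus strand, chr7:46751583-46751832, plus strand, and chr7:46715677-46715926, minus strand), with capitals as above.
Saa1: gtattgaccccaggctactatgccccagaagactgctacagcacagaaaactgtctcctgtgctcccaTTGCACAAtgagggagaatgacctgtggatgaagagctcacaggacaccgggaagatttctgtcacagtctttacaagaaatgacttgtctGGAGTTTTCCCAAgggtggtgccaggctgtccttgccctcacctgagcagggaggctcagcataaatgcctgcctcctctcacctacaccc
Saa2: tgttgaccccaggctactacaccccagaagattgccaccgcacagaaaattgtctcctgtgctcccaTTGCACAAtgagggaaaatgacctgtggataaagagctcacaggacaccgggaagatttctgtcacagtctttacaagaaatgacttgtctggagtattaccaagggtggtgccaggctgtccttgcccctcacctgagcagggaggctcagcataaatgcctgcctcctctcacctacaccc
Saa3: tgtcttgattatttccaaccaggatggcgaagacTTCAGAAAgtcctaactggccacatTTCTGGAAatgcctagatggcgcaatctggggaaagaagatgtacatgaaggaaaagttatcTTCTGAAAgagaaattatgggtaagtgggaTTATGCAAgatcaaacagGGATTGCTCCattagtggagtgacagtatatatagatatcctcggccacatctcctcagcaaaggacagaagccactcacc
The windows of Saa1 and Saa2 were identical at 238 of 251 aligned positions (94.8%), and those of Saa1 and Saa3 at 132 of 263 (50.2%). The Saa1 window held 2 C/EBP matches and 1 NF-κB match, and the nearer C/EBP match and the NF-κB match overlap. The Saa2 window held only the farther C/EBP match, TTGCACAA, which began 183 bases before its start, and no NF-κB match. Both held 1 RXR half-site, read as TGACCT along the gene. The Saa3 window held 4 C/EBP matches and 1 NF-κB match and no RXR half-site. The sequences of the array's probes were not used here, so how far a probe of Saa1 also captures Saa2 RNA was not tested.

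Saa3, which in mice is also made by macrophages, did not follow Saa1 and Saa2. Its intensities were 1589, 2862 and 3984 in male KO livers, against 3143, 383 and 467 in male WT livers. In females they were 1520, 1122, 3600, 1107 and 2787 in KO livers and 518, 7364, 617, 367 and 371 in WT livers. In each sex a single WT liver, male WT 1 and female WT 2, was high and the others were below every KO liver of that sex. The log2 difference was 1.64 in males (SE 0.956, adjusted p = 0.455) and 1.15 in females (SE 0.741, adjusted p = 0.622), with an average of 1.40 (SE 0.605, 95% interval 0.11 to 2.68, adjusted p = 0.253, limma). The deviations of Saa3 correlated weakly with those of Saa1 over the 16 arrays (r = 0.167, p = 0.71, rho −0.015, p = 0.97, 100000 permutations within groups, adjusted p 0.76 and 0.97 over the 45 pairs), and without the 2 arrays farthest from the median of Saa1 r was −0.38. It was −0.879 over the 6 male arrays and 0.436 over the 10 female arrays. In female WT 2 the summed intensity of 12 measured markers of Kupffer cells and macrophages was 21047, against 6605 to 10668 in the other female WT livers and 7604 to 10509 in female KO livers. In male WT 1 that sum was 7944, inside the range of the other male WT livers, 7938 and 8816, and the neutrophil sum was the highest of the male WT livers (764). Of the Kupffer cell markers Cd5l was detected on no array. The part of these cells in the level of Saa3 was not tested.

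**Figure D3:**
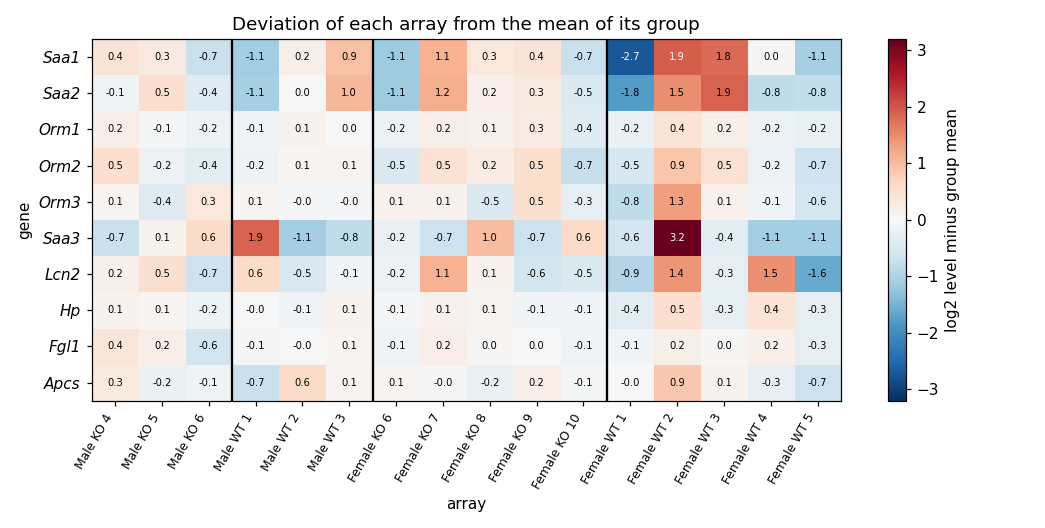
Deviation of each array from the mean of its group for the 10 genes, on the log2 scale (colour and printed value; red above and blue below the group mean), with arrays along the horizontal axis and black lines between groups. The largest single deviation is that of Saa3 in female WT 2 (3.2), and female WT 2 is above its group mean for all 10 genes.

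Orosomucoids 1 and 2 did not separate the genotypes. Orm1 had intensities of 31091, 26102 and 24370 in male KO livers, against 25598, 30021 and 27854 in male WT livers. In females it had 21018, 26936, 25909, 28463 and 17649 in KO livers and 22136, 34361, 29154, 22601 and 21616 in WT livers. All 4 groups overlapped, and the 95% interval of the difference, KO minus WT, was −0.49 to 0.42 in males and −0.46 to 0.24 in females. Orm2 ranged over 6839 to 12902 in male KO livers, 4431 to 10606 in female KO livers, 6240 to 7408 in male WT livers and 5348 to 15620 in female WT livers. Its differences were 0.34 (SE 0.403, adjusted p = 0.730) in males and −0.18 (SE 0.312, adjusted p = 0.890) in females. Orm2 thus varied little between the 3 male WT livers (SD 641) and more in the other groups (SD 2835 to 4387).

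The deviations of Orm1 and Orm2 correlated with r = 0.973 (rho 0.971), with permutation p = 1e-05 for r, the smallest that 100000 permutations can give, and adjusted p of 0.00045. Without female WT 2 and female KO 10, the 2 arrays farthest from the median of Orm1, r was 0.964. How far the probes of Orm1 and Orm2 capture the same RNA was not tested. Saa1 and Orm2 correlated with r = 0.828 (rho 0.853, permutation p 0.00077 and 0.00038, adjusted 0.012 and 0.0057), and with r = 0.808 without female WT 1 and 2. The 6 pairs among Saa1, Saa2, Orm1 and Orm2 had r of 0.727 to 0.973 and an adjusted p under 0.05 each. Among the 6 male arrays the pairs of Saa2 with Orm1 (r = 0.294) and Orm2 (r = 0.225) were weak, against 0.80 and 0.854 among the 10 female arrays.

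Of all 45 pairs 14 had an adjusted p under 0.05 for r, all of them positive, and the median r was 0.508. The share of such pairs among other genes tested was not determined, so the count of 14 is not a result particular to these genes. Outside the pairs above the closest was that of Hp and Lcn2, with r = 0.881 (rho 0.90, permutation p 0.0019 and 0.00077, adjusted 0.014 and 0.0064), and r = 0.788 without female WT 2 and 4. Fgl1 correlated with Lcn2 (r = 0.627, rho 0.741, permutation p 0.0018 and 0.0029, adjusted 0.014 and 0.016), and with r = 0.814 without male KO 4 and 6. The lowest r of any pair was −0.043, between Saa3 and Fgl1. No pair that holds Saa3 had an adjusted p under 0.05 for r.

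**Figure D4:**
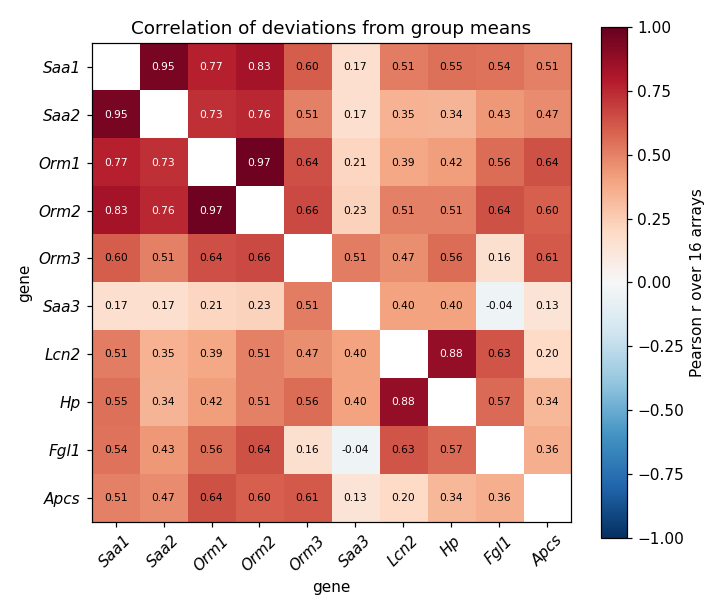
Pearson correlation of the deviations from group means for every pair of the 10 genes over the 16 arrays (colour and printed value, both axes list the genes). Orm1 and Orm2 (0.97), Saa1 and Saa2 (0.95) and Hp and Lcn2 (0.88) are the highest, and the row of Saa3 is pale.

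Among all genes tested, the nearest to the mean deviation of Saa1 and Saa2 were Nek3 (r = 0.876), Pms1 (0.835), A2ml1 (0.827), Ifih1 (0.822), Cenpm (0.810), Orm2 (0.806), C1s2 (0.806), Guca1a (0.803), Cops5 (0.796) and 5430427O19Rik (0.795). Those nearest to the mean deviation of the Orm genes were Clec4a3 (0.923), Nubp1 (0.891), 1110038F14Rik (0.871), Themis2 (0.859), Txndc11 (0.852), Tmem51 (0.843), Fabp7 (0.842), Tfec (0.842), Spatc1l (0.840) and Vps26c (0.826). These are descriptions over the same 16 arrays, which share their livers, and several of these genes are dim. Orm2 is the only one of the 10 acute phase genes in the first list.

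Orm3 separated the sexes in both genotypes. Its intensities were 6.3, −2.4 and 10.5 in male KO livers, against 75.6, 73.4, 43.7, 101 and 51.3 in female KO livers. They were 1.2, −4.7 and −12.3 in male WT livers, against 16.1, 125, 45.2, 37.0 and 21.7 in female WT livers. No male liver reached the detection threshold, while 9 of the 10 female livers did, and the sexes did not overlap in either genotype. Since the males were not above background, only a lower bound can be given, as the mean log2 level of the females against the detection threshold of the male arrays. Orm3 was at least 2.24-fold lower in male than in female KO livers and at least 1.52-fold lower in male than in female WT livers. The limma tests were made on the differences as measured, with values below 0 set to 0, and not on these bounds. These differences were −1.96 in KO livers (adjusted p = 0.00569) and −1.77 in WT livers (adjusted p = 0.0102). Orm3 passed the filter on detection only through female arrays, so the tests are not independent of that filter. Without male KO 5 the difference in KO livers had an adjusted p of 0.0593, and without male WT 2 or 3 that in WT livers had 0.0537 and 0.0558. Between KO and WT its difference was 0.56 in females (adjusted p = 0.533), and none is given in males, where neither group was above background.

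Orm3 and Orm2 stand side by side on chromosome 4, and their promoters are printed because Orm3 differed between the sexes and Orm2 did not pass that test. The windows are the 250 bases before each start in GRCm38.p6 (chr4:63355908-63356157 and chr4:63362199-63362448, both on the plus strand), with capitals as above.
Orm3: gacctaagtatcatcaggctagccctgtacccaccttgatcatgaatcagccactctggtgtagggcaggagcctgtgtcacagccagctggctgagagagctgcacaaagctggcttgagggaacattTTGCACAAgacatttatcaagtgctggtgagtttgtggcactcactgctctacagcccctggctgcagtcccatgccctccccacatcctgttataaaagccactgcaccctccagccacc
Orm2: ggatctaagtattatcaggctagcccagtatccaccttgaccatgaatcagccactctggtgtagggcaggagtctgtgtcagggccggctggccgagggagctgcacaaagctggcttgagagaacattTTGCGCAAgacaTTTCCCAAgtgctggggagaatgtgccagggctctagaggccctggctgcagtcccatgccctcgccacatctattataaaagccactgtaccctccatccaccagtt
The windows were identical at 219 of 255 aligned positions (85.9%). Both held a C/EBP match about the same distance from the start, TTGCACAA beginning 121 bases before that of Orm3 and TTGCGCAA in Orm2, and Orm2 held a second, TTTCCCAA, just downstream. Neither held a match to the STAT motif, the type II element, the NF-κB consensus or the RXR half-site. Both held a TATAAA, which 12.4% of all windows have.
Orm2 itself differed by 0.25 between male and female KO livers (95% interval −0.51 to 1.01, adjusted p = 0.811) and by −0.28 between male and female WT livers (−1.04 to 0.49, adjusted p = 0.755). Because the copies are so alike, the share of Orm1 or Orm2 RNA in the signal of the Orm3 probe was not tested.

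Fgl1, which in hepatocytes is induced by interleukin 6, was the other gene with a sex difference. It had intensities of 30135, 26534 and 14890 in male KO livers, against 30465, 37786, 33547, 33247 and 29879 in female KO livers. It had 15326, 15919 and 17083 in male WT livers, against 30683, 37357, 33656, 36315 and 26534 in female WT livers. In WT livers the sexes did not overlap and all male livers were far below all female ones. In KO livers male KO 4 lay within the female range and male KO 6 lay below the male WT livers. The log2 difference, male minus female, was −1.02 in WT livers (SE 0.197, adjusted p = 0.0064, 2.03-fold higher in females) and −0.53 in KO livers (SE 0.197, 95% interval −0.94 to −0.11, adjusted p = 0.219).

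The second detected probe of Fgl1 gave −0.98 in WT livers, with an adjusted p over all probes of 0.024, and −0.56 in KO livers (adjusted p = 0.287). Between KO and WT livers Fgl1 differed by 0.50 in males (SE 0.220, 95% interval 0.04 to 0.97, adjusted p = 0.307) and by 0.01 in females (−0.35 to 0.37, adjusted p = 0.990). Without male KO 6 the male difference was 0.81 with an adjusted p of 0.047. This was the only 1 of 23 alternatives that called it. Over all of them the male difference ran from 0.30 to 0.81, with an adjusted p of up to 0.630. The test of whether the sex difference of Fgl1 depended on genotype gave 0.50 (SE 0.278, 95% interval −0.09 to 1.08, adjusted p = 0.629), so such a dependence was not detectable with these arrays.

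The other 8 genes did not pass the test between the sexes. In WT livers Saa1 differed by 1.71 (95% interval −0.11 to 3.53, adjusted p = 0.320), Saa2 by 1.41 (−0.14 to 2.97, adjusted p = 0.341), Lcn2 by −1.22 (−2.51 to 0.07, adjusted p = 0.317) and Apcs by −0.66 (−1.30 to −0.02, adjusted p = 0.269), all male minus female. In KO livers the differences of these 4 genes were 0.87, 0.82, −0.06 and −0.29, with adjusted p of 0.671 to 0.979. Lcn2 thus averaged 3476 ± 1312 in male KO livers (SD, n = 3) and 3784 ± 2090 in female KO livers (SD, n = 5), and 530 ± 213 in male WT livers (SD, n = 3) and 1696 ± 1444 in female WT livers (SD, n = 5). Over the 10 genes 1 was called in KO livers (Orm3) and 2 in WT livers (Orm3 and Fgl1), all lower in males and all given with the same arrays as the comparisons of the genotypes, where 2.36% and 3.71% of all genes were called in either direction. The sexes did not overlap for 1 of the 10 in KO livers and 2 in WT livers, against 13.1% and 11.5% of all genes.

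**Figure D5:**
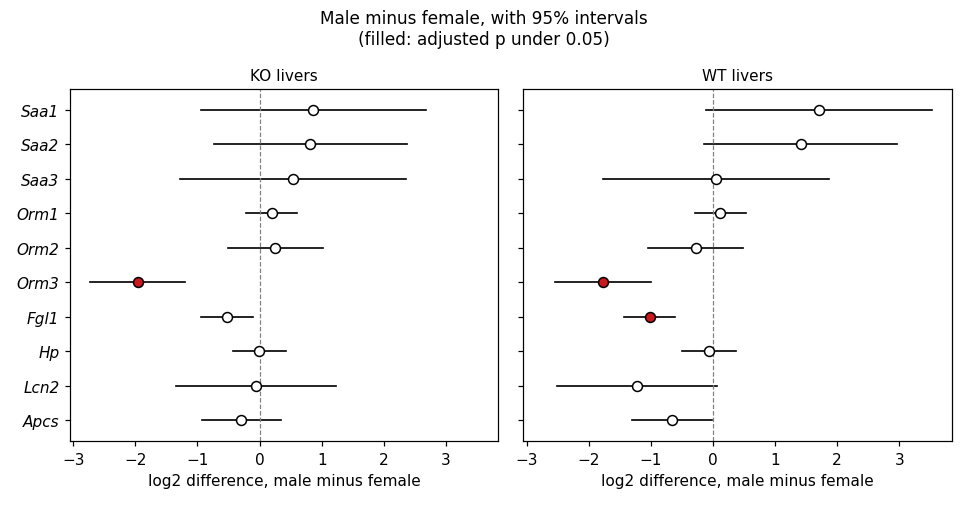
Log2 difference, male minus female, of the 10 genes in KO livers and in WT livers (horizontal axis, log2 of intensity plus 16), with 95% intervals from limma as lines. Filled points have an adjusted p under 0.05, which are Orm3 in both panels and Fgl1 in WT livers only, and the intervals of the Saa genes are the widest. The points of Orm3 are differences as measured, with no male array above the detection threshold.

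A list of 43 further genes was drawn up for those that rise in the acute phase, but it also holds the constitutive Saa4. Of these genes 35 were tested and none was called between KO and WT in males or in females by limma. At an unadjusted p under 0.05, 9 were higher and 2 lower in male KO livers and 4 higher and 3 lower in female KO livers. Those are 31.4% of the 35 in males, beside 14.3% of all genes tested, and 20% in females, beside 12.3%. Averaged over the sexes 5 of the 35 were called, or 14.3%, beside 4.59% of all genes. The metallothioneins Mt1 (1.35, adjusted p = 0.0199) and Mt2 (1.28, adjusted p = 0.0181, detected on 1 of the 3 male WT arrays) and Serpina1e (0.58, adjusted p = 0.0254) were higher in KO livers. So was Il1rn, the interleukin 1 receptor antagonist (adjusted p = 0.0166), a dim probe with intensities of 24.8 to 39.2 in male KO livers and 7.2 to 14.1 in male WT livers, where no array was above background, and of 15.6 to 51.7 in female KO livers and 8.1 to 28.3 in female WT livers. Saa4, the constitutive serum amyloid A gene that lies beside Saa1, was lower by the same average (−0.64, adjusted p = 0.0164). For the 35 genes the median difference was 0.29 in males, beside 0.02 in females. Between the sexes, C9, the last complement component, was higher in male WT livers (1.43, adjusted p = 0.00176), and the lectin gene Mbl2 (−0.83, adjusted p = 0.002) and Mt1 (−2.53, adjusted p = 0.00359) were lower. In KO livers Mbl2 (−0.67, adjusted p = 0.015) and Crp (−0.58, adjusted p = 0.0294) were lower in males. These calls between the sexes are 8.57% of the 35 in WT livers and 5.71% in KO livers. Over all genes the shares were 3.71% and 2.36%.

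Of 14 tested genes that fall in the acute phase, only Serpina6, the corticosteroid-binding globulin, was called between the genotypes in males (1.40 higher in KO livers, adjusted p = 0.0331), which is 7.14% of the 14 beside 1.5% of all genes, and none in females, where 2 were higher and 1 lower in KO livers at an unadjusted p under 0.05. Averaged over the sexes, Serpina6 (1.13, adjusted p = 0.00246) and Fetub (0.78, adjusted p = 0.00641) were higher in KO livers, 14.3% of the 14 beside 4.59% of all genes. The median difference of the 14 was 0.12 in males and 0.081 in females, beside 0.021 and 0.0041 for all genes. Alb (−0.97, adjusted p = 0.0236) and Serpina6 (−1.58, adjusted p = 0.00359) were lower in male than in female WT livers, 14.3% of the 14 beside 3.71% of all genes. The Alb probe read 564 to 842 in male and 1065 to 1668 in female WT livers. That of Ttr, another hepatocyte marker, read 25470 to 33809 in female WT livers. How well the Alb probe reports Alb RNA was not tested.

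Of 27 tested genes that carry interleukin 6, interleukin 1 and tumour necrosis factor signals to these promoters, only Il1rap, the accessory chain of the interleukin 1 receptor, was called. It was higher in female KO than in female WT livers (0.75, adjusted p = 0.018) and in male than in female WT livers (0.80, adjusted p = 0.0218). That is 3.7% of the 27 in each of these comparisons, beside 2.37% and 3.71% of all genes. Neither Stat3 nor Socs3, the transcription factor and the feedback inhibitor of interleukin 6 signalling, was called in any comparison. Among 10 tested receptors and partners of the acute phase proteins, Lrp2, or megalin, an endocytic receptor that takes up Lcn2 in kidney, was called. Its intensities were 160, 144 and 120 in male KO livers, and on all 13 other arrays it was not detected, at −8.93 to 12.6. Lrp2 was at least 4.24-fold higher in male KO than in male WT livers and at least 4.24-fold higher in male than in female KO livers. It entered the tested genes only through the 3 male KO arrays, so its tests are not independent of the filter on detection. They were also made by limma on the differences as measured, not on these bounds. The adjusted p was 1.43e-06 between KO and WT in males and 6.06e-08 between male and female KO livers. For a response that differed between the sexes it was 0.000131. Cd36, a scavenger receptor that binds serum amyloid A, had intensities of 14.7, 5.7 and 19.2 in male WT livers, none above background, against 43.3 to 80.0 in female WT livers. It was at least 2.06-fold lower in male than in female WT livers. The adjusted p of 0.00469 by limma belongs to the difference as measured, not to this bound. Each of these comparisons called 1 of the 10, or 10%. Over all genes 1.5% were called between KO and WT in males and 2.36% between male and female KO livers. The share was 3.71% between male and female WT livers and 0.0606% for a response that differed between the sexes.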

How the data were processed

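Liver RNA of 16 mouse samples was measured on Illumina mouse Ref-6 v2 arrays, 1 array per sample. The deposited values are linear intensities of 45281 probes that the authors had background-subtracted and quantile normalized, as the values show (35.2 to 35.3% of each array lay below 0). The submitters' processing notes name lumi, without a version. A second table, of non-normalized signals in 32 measured columns, was not used, since its columns match no sample label.

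Groups, sex and replicate numbers came from the sample titles. Probe annotation named 1 gene for 34885 probes, several for 18 and none for 10378. Negative values were replaced by 0, and log2 was taken after an offset of 16. A probe counted as detected above 3 times the root mean square of its array's values below 0 and was kept when detected on at least 3 arrays (14946 probes). The brightest such probe stood for each of 9906 genes.

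The comparisons were made with limma 3.58.1 (R 4.3.3), using 4 group means (12 residual and 4.03 prior degrees of freedom, median residual SD 0.321) and Benjamini-Hochberg adjustment at 0.05. The fit was tested on simulated data. The number of arrays limits the precision. Correlations used deviations from group means and 100000 permutations within groups. The genes, the lists of other acute phase, signalling and receptor genes and the cell markers were chosen with earlier results of these data known. The text names all 10 genes, up to 4 called genes per list and comparison with the smallest adjusted p, and the 10 genes nearest to each of 2 mean deviations. The 5 genes called on the average of both sexes were named beyond that rule, after their values were seen, as were Stat3, Socs3 and that average itself. Sequences are from RefSeq (GRCm38.p6). Alternatives were offsets of 4 and 50, no filter on dim probes, the mean of a gene's probes, a fit on the compared groups alone, array weights, an intensity trend with a robust prior, the replicate number as a block, and leaving out each array.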

Additional observations from a re-analysis of the deposited data

Results flagged for a closer look

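One liver stood apart in 1 of 20 combinations of a gene and a group of 5 arrays (groups of 3 were not tested). The Saa3 intensity of female WT 2 was 7364 and the next highest female WT liver had 617. On the log2 scale the gap was 0.83 of the range of the group. Chance flags about 1 in 20 such groups.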

How the results depend on the processing

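The number of the 10 genes called between KO and WT in males was 0, and it became 1 with an offset of 50 (Lcn2), 1 when only the compared groups were fitted (Lcn2) and 3 with array weights (Saa3, Lcn2 and Apcs). Leaving out 1 array at a time gave 0 to 1 genes. In females it was 0, and 2 with array weights (Hp and Lcn2). For the mean of both sexes it was 1, and 2 with an offset of 50, with the mean of a gene's probes and with an intensity trend and robust prior (Hp and Lcn2 each time), 4 with array weights (Saa3, Hp, Lcn2 and Apcs) and 1 to 4 with 1 array left out, the 4 without female WT 2. Between male and female KO livers it was 1, and 0 to 1 with 1 array left out. Between male and female WT livers it was 2, 1 (Fgl1) when only the compared groups were fitted, 3 with array weights (Saa1, Orm3 and Fgl1), and 1 to 2 with 1 array left out. Over all genes, array weights gave 1611 calls against 149 between KO and WT in males, 1445 against 455 for the mean of both sexes, 501 against 234 between male and female KO livers, 1405 against 368 between male and female WT livers and 39 against 6 for the interaction. Fitting only the compared groups gave 137 against 235 in females and 171 against 368 between male and female WT livers, where the replicate block gave 698. Leaving out male WT 2 or 3 or male KO 4 or 5 gave 74 to 86 against 149 in males, male WT 2 or 3 gave 169 to 171 against 368, and male KO 4 or 5 gave 116 to 145 against 234. The cause of these shifts was not tested, beyond the smaller number of arrays where some were left out.

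No called difference changed sign. Of those not called, the following did. The interaction of Orm3 was 0.21 with an offset of 4, and the sex difference of Hp in KO livers was 0.19 with the mean of its probes. With array weights, Saa2 in males was −0.65, the sex differences in WT livers were −0.46 for Saa3 and 0.14 for Hp, and the interaction of Hp was −0.17. With 1 array left out, the KO minus WT difference in males ran over −0.45 to 0.60 for Saa2 and −0.14 to 0.037 for Orm1, and in females over −0.31 to 0.85 for Saa1, −0.35 to 0.0374 for Orm2 and −0.0658 to 0.0575 for Fgl1. Male minus female in KO livers ran over −0.025 to 0.43 for Orm2, −0.056 to 0.0723 for Hp and −0.31 to 0.27 for Lcn2, and in WT livers over −0.90 to 0.84 for Saa3 and −0.16 to 0.070 for Hp. The interaction ran over −0.30 to 1.44 for Saa3, −0.034 to 0.15 for Orm1, −0.52 to 0.0106 for Orm3 and −0.0753 to 0.15 for Hp.

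Male and female WT arrays of the same number had correlations of their deviations of 0.0983, 0.261 and 0.0749. Those of different numbers had −0.358 to 0.292. The labels do not say that the numbers are pairs, so they were not treated as such in the main fit. With the replicate number as a block, which was possible only between male and female WT livers, Saa3 differed by −0.17, and no call of the 10 genes changed. The correlation within a block was estimated at 0.293. Array signal cannot show depth here, and dim probes such as that of Orm3 give only bounds in males.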
